A study of Homo sapiens with 34 samples.

Results

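Transporter genes were taken from the m6Am peak lists of HEK293T cells by their names. The names of solute carriers (SLC, a number and the letter A), ABC proteins, pumping ATPases and potassium, chloride and TRP channels were kept. Solute carriers named otherwise, such as SLCO genes or SLC names with another letter, were not matched. Mitochondrial SLC25A carriers, ATP synthase genes, SLC2A1 and SLC16A3 were left out. This gave 34 of the 1652 lines of the list from unstressed HEK293T cells (2.06%, 95% Wilson interval 1.48 to 2.86%), 6 of the 390 lines of the hypoxia list (1.54%, 0.707 to 3.32%) and 0 of the 74 lines of the heat shock list, for which the interval reaches 4.93%. In all, 40 of 2116 lines with 32 distinct gene names were transporters. The list of unstressed cells held 31 of the names and the hypoxia list held 6 of them.

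HEK293T is an established human embryonic kidney cell line, and all groups were made from it. The list of unstressed cells came from wild-type cells (2 libraries each of m6A-IP with FTO, m6A-IP without FTO, m7G-IP and input). Both stress lists came from a second set of libraries, in which cells kept in 1% oxygen for 24 h and cells heated to 43 °C (2 h, followed by a recovery of 6 h) were compared with untreated cells. Each of these conditions had 2 libraries per IP and 1 input. The hypoxia and heat shock lists shared the untreated libraries and hold the peaks that the authors listed as changed, while the list of unstressed cells holds all m6Am peaks, so the lists differ in what they were selected for. Libraries of PCIF1-KO cells and a CAGE library were also made, and their signal was not analysed here. Markers of the cell line were not analysed here, because the lists hold no expression values.

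m6Am is a methylated adenosine at the first transcribed position of mRNAs, next to the m7G cap. It is written by PCIF1 and can be removed by FTO. An RNA can carry it only where transcription starts at an A. Transporters move nutrients, ions and metabolites across membranes, and most cells regulate the uptake of glutamine, glucose and other substrates and the release of lactate through them. A peak was called m6Am by the authors where its signal without FTO treatment was more than 2-fold that with FTO treatment. Each line of a list gives the outer span of a peak with introns included and the name of a gene, on hg19. The lists hold no counts, strand or replicate, so the depth of each peak is unknown and values carry no replicate error. All intervals below are Wilson intervals and cover counting error only.

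The annotated start sites nearest to the spans were read from the genome. The 17 windows below are those of the transporters named in both lists and of up to 2 further genes per class whose span began nearest to a start site. They show the base at which an annotated transcript starts, which m6Am could occupy where that base is an A and transcription begins there. Each is 30 bases long on the strand of the gene, with the start base at position 16. The capitals mark the start base and the 2 bases before it.
SLC38A2 (chr12:46766542-46766571, minus strand): tcgcagggctgctCCAcagccgcgcgacgc
ABCF2 (chr7:150924277-150924306, minus strand): cacgcggaggatcCTAaggagcagctctgt
SLC24A1, upstream span (chr15:65903728-65903757, plus strand): gccgtgtctctctGCAttgccctgaatctc
SLC10A7 (chr4:147443102-147443131, minus strand): gtgcgcgtgtattCTGaggcgcgtggtagt
SLC6A6 (chr3:14444061-14444090, plus strand): cccggccgagctgGTAtttttccacccagc
SLC7A8 (chr14:23652855-23652884, minus strand): aaagagaagcacgTTAgtgtgtggagaagc
SLC2A3 (chr12:8088769-8088798, minus strand): atcccagcgagacCCAgagatgctgtaatg
SLC27A2 (chr15:50474378-50474407, plus strand): cgggctcagccggCCAgtcctgcccggaac
SLC16A14 (chr2:230933695-230933724, minus strand): cggaacctcagccAAAgctataaacttcaa
SLC9A9 (chr3:143567313-143567342, minus strand): aggaagttgtaacTAGaagccatctgaata
SLC39A8 (chr4:103266638-103266667, minus strand): tttgtaaagagcgCCGgagcggatcgcgga
SLC30A5 (chr5:68389803-68389832, plus strand): agtgagggttgctGGGcctgatgacgtggc
SLC35A2 (chrX:48769221-48769250, minus strand): agtctaggagacaAGAtcgggggatgatct
SLC37A4 (chr11:118901602-118901631, minus strand): gcccccgccggccGCGcttgcgcagccttc
ATP6V1E1 (chr22:18111501-18111530, minus strand): ccggaacccgcggTTAtaaagtaaaggaac
ATP8B3 (chr19:1812261-1812290, minus strand): gagatcccgccccCCGtttcaggaccgttg
ABCB8 (chr7:150725494-150725523, plus strand): gccaaggcgcgagGGGgttgtcgggatggg

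Of these windows, 10 start with A and the other 7 with G. Those of SLC38A2, SLC2A3, SLC27A2 and SLC24A1 read CCA or GCA in capitals, the triplets in which a C precedes the starting A and another base than A comes before it. A window shows the annotated start site and not the position of the modified base, which the lists do not give. By the paper's account, most m6Am sites fall downstream of the start sites annotated in RefSeq.

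To ask which transporters carried m6Am in unstressed cells, the names were set against the annotated genes that the same naming rule finds. The list named 30 of 526 protein-coding transporter genes (5.7%, 4.02 to 8.03%), and 7.3% of all 20149 protein-coding genes. The remaining name, SLC2A1-AS1, is that of a noncoding gene. The expression of the genes was not analysed here, and an unlisted gene is not shown to lack m6Am.

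Amino acid carriers were the class with the most names. The list held 9 of 66 (13.6%, 7.34 to 23.9%), beside 7.3% of all protein-coding genes. It held 3 of the 7 genes of the SLC1A family (42.9%, 15.8 to 75%), namely SLC1A3, which takes up glutamate and aspartate, SLC1A4, a carrier of small neutral amino acids, and SLC1A5, the main glutamine importer of many cultured cells. Both SLC38A1 and SLC38A2, sodium-coupled carriers of glutamine and alanine, were listed of 11 SLC38A genes. SLC7A8, a light chain that exchanges large neutral amino acids, was listed together with SLC3A2, the heavy chain that brings such light chains to the plasma membrane. The taurine carrier SLC6A6 and the neutral amino acid carrier SLC6A15 were the remaining members. Most transporter families are small and had no listed gene. The intervals of single families, here and below, are not adjusted for the number of families compared.

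All spans of the amino acid carriers began within 216 bp of an annotated start site, the distance found for SLC38A1. That of SLC6A6 (chr3:14444076-14444290, 215 bp) and that of SLC7A8 (chr14:23652571-23652869, 299 bp) began exactly at an annotated start site. The SLC7A8 span lay in exon 1 of its canonical transcript and held 299 bp of 5′ UTR. The SLC1A5 span, 839 bp long and in exon 1 as well, began 9 bp downstream of an annotated start site that begins with A, and comprised 620 bp of 5′ UTR and 219 bp of coding sequence. It held no annotated start site of SLC1A5 but did hold a start site of another gene. The SLC1A4 span also held a start site of another gene, beside those of SLC1A4. SLC3A2 had 2 spans, chr11:62623484-62623781 (298 bp) and chr11:62648344-62648552 (209 bp), which lay 24562 bp apart. They began 8 and 9 bp downstream of different annotated start sites of the gene, and the downstream span held the canonical start site.

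Monocarboxylate carriers accounted for 4 of the 7 organic acid, lipid and vitamin carriers listed (7 of 91 genes, 7.69%, 3.78 to 15%). Of all protein-coding genes 7.3% were listed. Of the SLC16A family, 4 of 13 genes were listed (30.8%, 12.7 to 57.6%): SLC16A1, which moves lactate and pyruvate with protons, and its relatives SLC16A9, SLC16A13 and SLC16A14. The name SLC16A3 is outside the group by rule. SLC27A2, which imports and activates very long chain fatty acids, had a span of 270 bp (chr15:50474393-50474662) that began at its canonical start site and ended 38 bp into the coding sequence. The SLC16A14 span (chr2:230933326-230933715, 390 bp) began 6 bp upstream of a start site. The class also held SLC10A7, a relative of the bile acid carriers, and SLC17A5, which exports sialic acid from lysosomes; both are described with the hypoxia list.

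Sugar carriers were represented by SLC2A3 alone (1 of 31 genes, 3.23%, 0.572 to 16.2%), beside 7.3% of all protein-coding genes. The name SLC2A1 is outside the group by rule. SLC2A3 is the glucose carrier GLUT3, and its span (chr12:8088624-8088892, 269 bp) held the canonical start site, 109 bp from the 5′ end, and 7 bp of coding sequence. SLC2A1-AS1 entered the class by its name. It is annotated as SLC2A1-DT, a noncoding RNA transcribed away from SLC2A1 on the plus strand from position 43424720 of chromosome 1. The span, chr1:43424361-43424539 (179 bp), did not reach this gene. Its 5′ end on the plus strand lay 359 bp upstream of the nearest start site of that gene, and it held a start site of SLC2A1 on the minus strand. The lists give no strand, so to which of these genes the peak belongs cannot be told apart.

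Carriers of nucleotide sugars and sugar phosphates gave 2 of 10 genes (20%, 5.67 to 51%), beside 7.3% of all protein-coding genes. The naming rule takes SLC35A but not the SLC35 families with other letters, so the 10 genes are not the whole class. SLC35A2 brings UDP-galactose into the Golgi, and its span was the shortest of all transporter spans (chrX:48769146-48769235, 90 bp). It began at an annotated start site 312 bp upstream of the canonical one and held no canonical exon. SLC37A4 carries glucose 6-phosphate into the endoplasmic reticulum. Its 2 spans, chr11:118900011-118901616 (1606 bp) and chr11:118901382-118901616 (235 bp), were nested and began at the same canonical start site.

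Metal ion carriers and inorganic ion exchangers were named at shares whose intervals include the 7.3% of all protein-coding genes. Metal ion carriers gave 2 of 32 genes (6.25%, 1.73 to 20.1%), the zinc importers SLC39A4 and SLC39A8. The SLC39A8 span (chr4:103265987-103266655, 669 bp) began 3 bp upstream of a start site. Inorganic ion exchangers gave 3 of 52 genes (5.77%, 1.98 to 15.6%). Among them, SLC9A9, a sodium-proton exchanger of endosomes, had a span of 241 bp (chr3:143567133-143567373) that reached 32 bp into the coding sequence. SLC24A1 exchanges sodium for calcium and potassium.

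Of the pumping ATPases, 4 of 63 were listed (6.35%, 2.5 to 15.2%), beside 7.3% of all protein-coding genes. ATP6V0C, ATP6V1D and ATP6V1E1 encode subunits of the proton pump that acidifies lysosomes and other vesicles, and ATP8B3 belongs to the pumps that flip phospholipids. The ATP6V0C span also held start sites of other genes. The ATP8B3 span (chr19:1811794-1812275, 482 bp) began at the canonical start site. ABC proteins gave 2 of 46 genes (4.35%, 1.2 to 14.5%). ABCB8 is a transporter of the mitochondrial inner membrane with a span of 181 bp (chr7:150725509-150725689), and ABCF2 has ATP-binding domains but no membrane domain.

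Ion channels were not listed. None of 126 potassium, chloride and TRP channel genes was named in the HEK293T list (0 of 126, interval up to 2.96%), beside 7.3% of all protein-coding genes. None was named in the hypoxia or the heat shock list, with the same interval. That interval includes the shares of all protein-coding genes in these lists, 1.81% and 0.337%. Whether the channel genes were expressed was not analysed here. The KCN names alone accounted for 95 of these genes. The remaining SLC families, grouped as other carriers, gave 0 of 9 genes in each list (up to 29.9%).

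**Figure D1:**
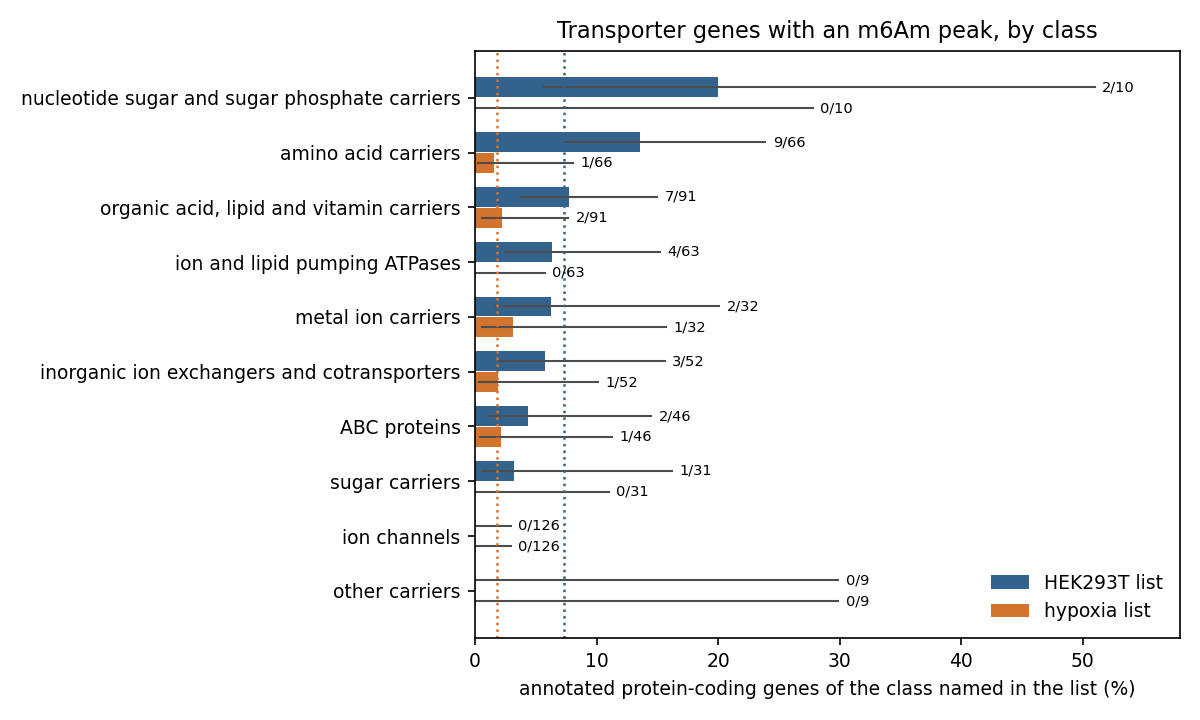
Share of annotated protein-coding genes of each transporter class (%, horizontal axis) named in the HEK293T list (blue bars) and the hypoxia list (orange bars), with 95% Wilson intervals as lines and the counts beside them. Dotted lines mark the share of all protein-coding genes named in each list (7.3% and 1.81%); amino acid carriers reached 9 of 66 and ion channels 0 of 126.

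Not all of these genes encode proteins of the plasma membrane. By family name, 23 of the 31 names in the HEK293T list, the noncoding SLC2A1-AS1 among them, belonged to families of the cell surface and 8 to families of internal membranes or of no membrane, and the hypoxia list had 3 of each. The internal names were ABCB8, ABCF2, ATP6V0C, ATP6V1D, ATP6V1E1, SLC17A5, SLC35A2 and SLC37A4 in the HEK293T list and ABCF2, SLC17A5 and SLC30A5 in the hypoxia list. SLC9A9, counted with its family at the surface, is known from endosomes. The label of plasma membrane transporters therefore holds for the larger share of the HEK293T names only.

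The transporter spans of the HEK293T list ranged from 90 to 29447 bp with a median of 315 bp, beside 1228.5 bp over all lines of the list. At most 1000 bp were covered by 24 of 34 (70.6%, 53.8 to 83.2%) and by 782 of all 1652 lines (47.3%). Counted over exons alone the medians lay closer together, at 298 bp for transporters and 334 bp for all lines. The other 10 transporter spans were longer. SLC38A1 had the longest span (29447 bp), of which 1327 bp were exonic, followed by SLC16A1 (27011 bp, 1260 bp exonic), SLC6A15 (20845 bp, 3718 bp exonic) and SLC1A4 (15535 bp, 2986 bp exonic). The listed proton pump subunits were all among the long spans, with 9316 bp for ATP6V1E1, 6884 bp for ATP6V1D and 5504 bp for ATP6V0C, of which 169, 474 and 566 bp were exonic. SLC1A3, SLC37A4 and ABCF2 had spans of 1924, 1606 and 1022 bp.

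**Figure D2:**
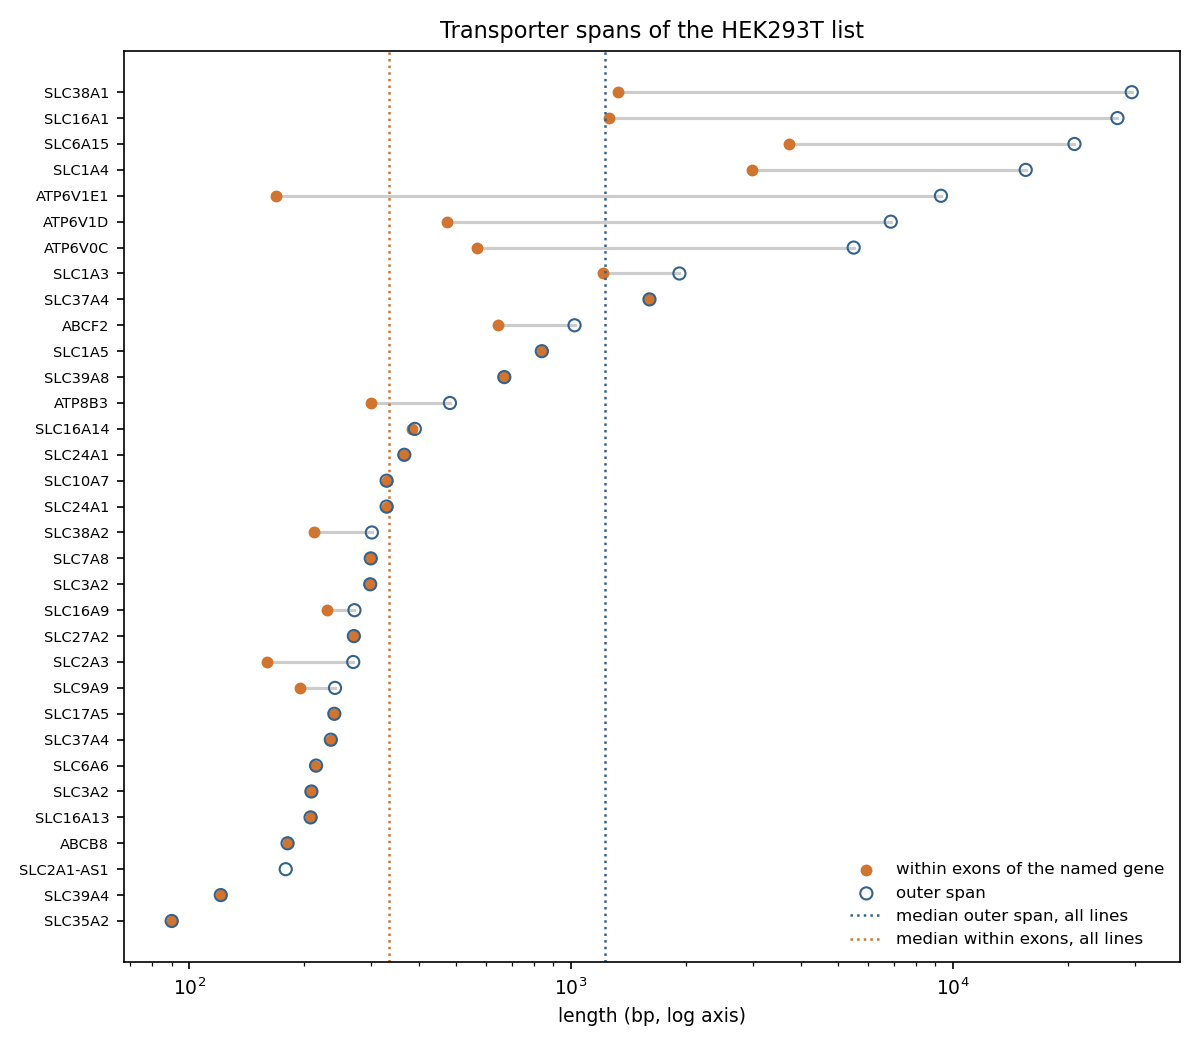
Length in bp (log axis) of 33 of the 34 transporter spans of the HEK293T list as outer span (open circles) and within the exons of the named gene (filled circles), with the medians over all lines as dotted lines. The spans of SLC38A1 (29447 bp) and SLC16A1 (27011 bp) shrank to 1327 and 1260 exonic bp, and SLC2A1-AS1 held no exonic base of its named gene.

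Most transporter spans held a start site of their gene. An annotated start site lay inside 29 of 34 spans (85.3%, 69.9 to 93.6%), beside 91.3% of the 1612 lines of the list that matched an annotated gene, and the canonical start site inside 25 (73.5%, beside 73.9%). The median distance from the 5′ end of the span to the nearest start site was 9 bp for transporters and 17 bp for all lines. Coding sequence was reached by 20 spans (58.8%, beside 61%). The spans held a median of 4 annotated start sites and at most 18, the latter in SLC6A15, so for most genes the start site in use cannot be told from the list.

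At the nearest start site the starting base was A for 16 of 34 transporter spans (47.1%, 31.5 to 63.3%), G for 14, C for 3 and T for 1. Over all lines A accounted for 45.2%, and over the canonical start sites of 19894 protein-coding genes for 50.7%. The triplets CCA, GCA or TCA stood at 8 transporter start sites (23.5%, 12.4 to 40%), beside 27.5% of all lines and 34.4% of canonical start sites. Where any start site inside the span was allowed, 26 of the 29 spans with a start site held one that begins with A (89.7%, beside 81.3% over all lines). The share with A thus depended on which start site was read.

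**Figure D3:**
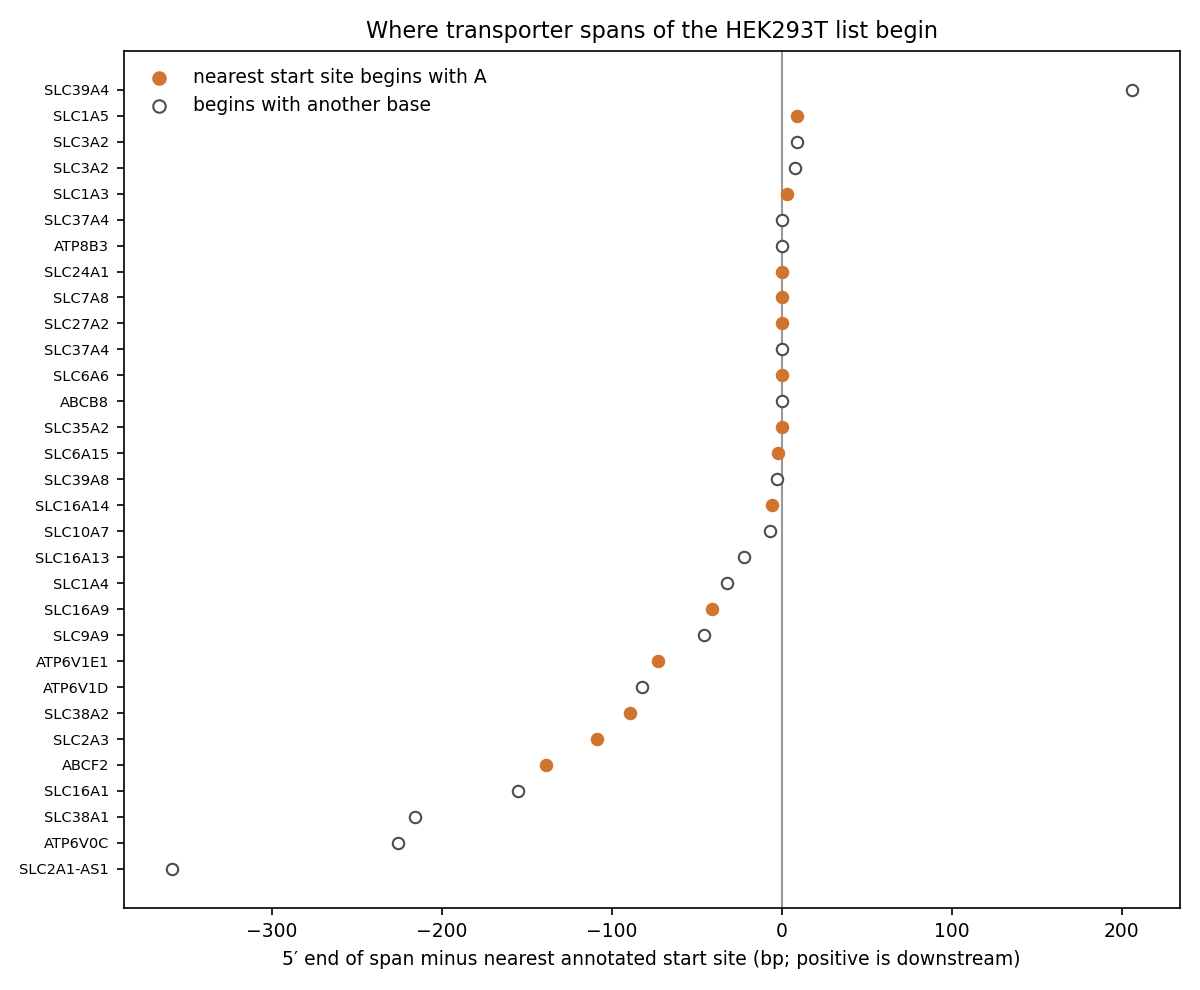
Position of the 5′ end of transporter spans of the HEK293T list relative to the nearest annotated start site of the named gene (bp, positive is downstream), with filled circles where that start site begins with A. Between SLC1A5 (9 bp) and SLC10A7 (-7 bp) lie most of the points; the spans of SLC17A5 and the downstream span of SLC24A1 are beyond the axis and not drawn, and 1 further span is not shown.

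A few spans lay away from any start site. SLC17A5 was listed with a span in exon 11 of its 11 exons (chr6:74303908-74304147), and all 240 bp belonged to the 3′ UTR, 50039 bp from the nearest start site. The downstream span of SLC24A1 (chr15:65947009-65947374) lay in exon 10 of 10, with all 366 bp in the 3′ UTR of the canonical transcript and 97 bp in the coding sequence of another transcript, 1932 bp from the nearest start site. Start sites of other genes were 22224 and 1049 bp away. The span of SLC39A4 covered 121 coding bp of exon 8 of 12, and its 5′ end lay 206 bp downstream of the start site of a noncoding transcript and 2969 bp from the canonical one.

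Spans confined to the 3′ UTR were counted in each list. Of the canonical transcript's exons they touched only the 3′ UTR, and they held no annotated start site of the named gene. Start sites of other genes were searched for transporter spans only. This kind of span matches the place of SLC17A5 and SLC24A1 described above and was not among the results planned beforehand. The counts are therefore a description only. Of 1503 HEK293T lines with a protein-coding gene and a canonical transcript, 3 (0.2%, 0.0679 to 0.585%) were of this kind, namely SLC17A5, SLC24A1 and TMEM107. TMEM107, a gene outside the group, was looked up after these values were seen. Of 369 such hypoxia lines there were also 3 (0.813%, 0.277 to 2.36%), with the same 3 names. Of 69 such heat shock lines there were 2 (2.9%, 0.799 to 9.97%), which give the same span of TMEM107 on both lines. Transporters gave 2 of the 3 in the HEK293T list and in the hypoxia list and none in the heat shock list, which names no transporter. These were 2 of 33 transporter spans of the HEK293T list (6.06%, 1.68 to 19.6%) and 2 of 6 of the hypoxia list (33.3%, 9.68 to 70%). Both counts come from the same 2 genes at overlapping spans. By contrast, exon 1 was touched by 27 of 33 transporter spans (81.8%, 65.6 to 91.4%) and by 88.5% of all these HEK293T lines.

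SLC24A1 had a further span in the HEK293T list, chr15:65903743-65904071 (329 bp), 42937 bp upstream of the one in the 3′ UTR. It began at an annotated start site with A, 10533 bp upstream of the canonical start site. The gene was thus named by the list at both ends. Names with more than 1 line were 34 in the whole HEK293T list and 3 among transporters (SLC3A2, SLC24A1 and SLC37A4).

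The hypoxia list was compared next, to see which transporter peaks the authors listed as changed in 1% oxygen. It named 6 of 526 annotated transporter genes (1.14%, 0.524 to 2.47%), beside 1.81% of all protein-coding genes. These were SLC38A2, SLC10A7, SLC17A5, SLC24A1, SLC30A5 and ABCF2. They came from 5 classes, with SLC10A7 and SLC17A5 in the same class of organic acid carriers (2 of 91 genes, 2.2%). Of the amino acid carriers 1 of 66 was listed (1.52%), and no sugar carrier (0 of 31, up to 11%) and no pumping ATPase (0 of 63, up to 5.75%). The direction in which these peaks changed is not given here.

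Of the 6 names, 5 were also in the HEK293T list (83.3%, 43.6 to 97%), beside 55.8% of all 385 names of the hypoxia list. Counted from the other list, 5 of 31 HEK293T transporter names were also in the hypoxia list (16.1%, 7.09 to 32.6%), beside 13.3% of all 1611 names. Both intervals include the share of all names.

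The spans of the 5 shared genes overlapped between the lists. SLC38A2 had the same span in both, chr12:46766345-46766645 (301 bp), of which 212 bp were 5′ UTR in exon 1 and 89 bp lay upstream of the start site. SLC10A7 covered chr4:147442795-147443123 (329 bp) in the HEK293T list and chr4:147442798-147443123 (326 bp) in the hypoxia list, with the same 5′ end and a difference of 3 bp at the other. Both of its spans began 31 bp upstream of the canonical start site and held 223 bp of 5′ UTR in exon 1. Over all hypoxia lines, 220 of 390 (56.4%) overlapped a HEK293T span by 1 bp or more and 43 (11%) were identical to one.

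ABCF2 and SLC17A5 had longer spans in the hypoxia list. The lists came from different sets of libraries and different selections, so whether length changed with hypoxia cannot be told from them. The ABCF2 span was chr7:150923409-150924430 (1022 bp) in the HEK293T list. In the hypoxia list it was chr7:150922063-150924400 (2338 bp), which reached 1346 bp further downstream. The overlap of 992 bp made up 97.1% of the former and 42.4% of the latter. Most of the added length was intronic, as the span within the exons of ABCF2 was 645 bp in the HEK293T list and 675 bp in the hypoxia list. The start site inside these spans is shared with the readthrough gene ABCF2-H2BK1, and the peak cannot be divided between them. The SLC17A5 span of 240 bp lay wholly within the hypoxia span (chr6:74303759-74304206, 448 bp), which extended 59 bp further upstream and 149 bp further downstream and was also entirely 3′ UTR.

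SLC24A1 was in the hypoxia list with its downstream span only. It covered chr15:65946979-65947339 (361 bp), and overlapped the HEK293T span by 331 bp (90.4% of the HEK293T and 91.7% of the hypoxia span). The span at the upstream start site had no counterpart in the hypoxia list. SLC30A5, which loads zinc into the secretory pathway, was named in the hypoxia list alone. Its span (chr5:68389776-68390041, 266 bp) held the canonical start site, and its 201 canonical exonic bp were all 5′ UTR in exon 1.

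**Figure D4:**
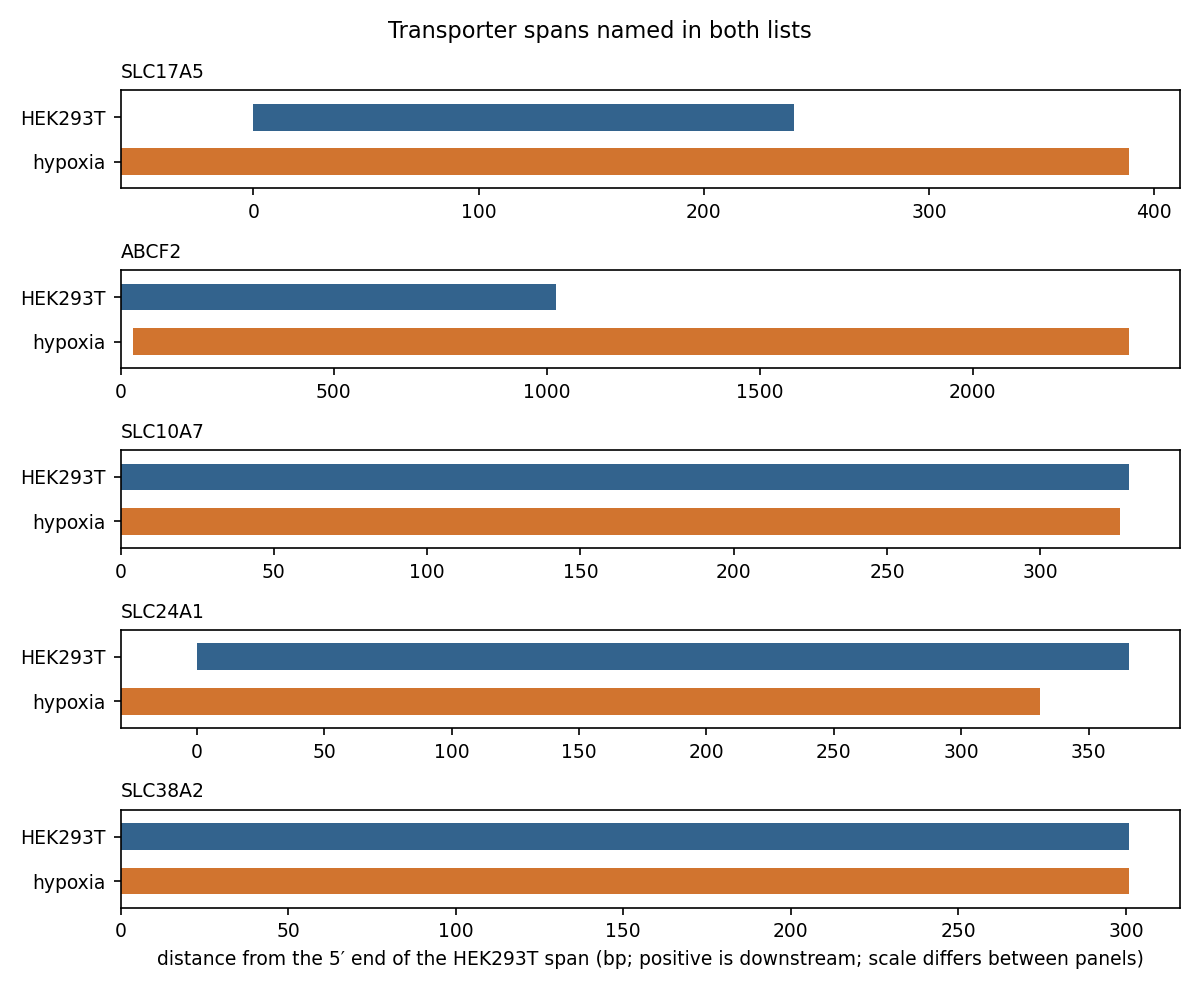
Spans of the 5 transporter genes named in both lists, drawn as distance from the 5′ end of the HEK293T span (bp, positive is downstream, with a different scale in each panel), HEK293T in blue and hypoxia in orange. SLC38A2 is identical, SLC10A7 differs by 3 bp, and the hypoxia span of ABCF2 extends 1346 bp further downstream.

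Among the 6 hypoxia spans, 4 held a start site of their gene (66.7%, 30 to 90.3%), beside 90.9% of the 385 matched lines, and the spans without one were those of SLC17A5 and SLC24A1. Their median length was 344 bp, beside 1287 bp over all hypoxia lines, and 5 of 6 covered at most 1000 bp (beside 47.4%).

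The heat shock list named 0 of 526 transporter genes (0 to 0.725%), beside 0.337% of all protein-coding genes. None of the 6 genes of the hypoxia list was therefore named there. The interval over its 74 lines, up to 4.93%, includes the 2.06% of the HEK293T list. The heat shock list holds only peaks listed as changed, so it does not give the share of transporters among m6Am peaks after heat shock.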

How the data were processed

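RNA was measured by m6Am-seq in 34 libraries of HEK293T cells in 21 groups, taken from their labels, and one CAGE library is among them. The authors trimmed reads with Trim Galore 0.6.6, aligned them to hg19 with HISAT2, called peaks with exomePeak and MACS2 and kept peaks overlapping an m7G-IP peak. How replicates were combined is not given in the sources used here. The authors deposited 3 lists of peak spans with gene names. Both stress lists also hold the authors' own fold change between stressed and untreated cells, which was not used, so no direction is given. Depth per library is unknown.

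Transporters were selected by gene name, and classes were assigned by family. Members and lists were chosen with earlier results of these data known. Gene names were matched by chromosome and symbol, or an older symbol, to Gencode release 44 on GRCh37, which placed all 40 transporter lines and 2067 of 2116 lines in all. Positions were read from 1, since 244 HEK293T starts fell on an exon start and 20 did when shifted by 1 base. Start sites were the 5′ ends of annotated transcripts, and the canonical transcript was the one so tagged in the annotation. Sequences came from the GRCh37 genome. Every transporter is named except 1, which is counted in all totals but not reported here. Coordinates and a window are given for genes in both lists and for up to 2 further spans per class nearest to a start site, with no window for chromosome 8 or where no start site lay inside the span or within 100 bp of its 5′ end. Shares have 95% Wilson intervals, and no test was run, because each condition has 1 list. The functions for the nearest start site, the start base of a window and the exonic length of a span were tested on simulated data. Python 3.11.15, SciPy 1.17.1 and Matplotlib 3.10.9 were used.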

Additional observations from a re-analysis of the deposited data

How the results depend on the processing

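Of 24 alternatives tried, 20 left the result within a factor of 1.5 or within its interval. Without the families of internal membranes, the hypoxia list held 3 transporter lines in place of 6. With the names that the rule leaves out, the heat shock list held 1 line in place of 0. Counting identical spans, 1 gene was shared by the HEK293T and hypoxia lists in place of 5. Where any start site inside the span was read in place of the nearest, 89.7% of spans had one that begins with A, in place of 47.1%, by construction, as most spans hold several. No paired analysis was possible because each list is a single set of peaks that carries no replicate number, and for the same reason no replicate could be left out. Depth per peak is unknown.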
